A study of Mus musculus with 6 samples.

Results

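Interferon regulatory factors (IRFs) and signal transducers and activators of transcription (Stats) are the transcription factors through which cells respond to interferons and related cytokines. Of these families 8 genes are described here, chosen by their mouse symbols: Irf1, Irf2, Irf3, Irf7, Irf8, Irf9, Stat2 and Stat3. They are 8 of 50600 gene identifiers in the libraries and 8 of the 16938 genes with enough reads to be tested, so all of them passed the filter on low counts.

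The libraries are polyadenylated RNA from primary cortical thymic epithelial cells (cTECs), the cortical stromal cells on which T cell precursors develop. Mice were aged 8 to 10 weeks. Both groups carry the strain name B6.B6CB-Psmb11tm1Smta: the mutant group (KO, libraries A, B and C) was Psmb11-/- and the control group (WT, libraries A, B and C) Psmb11+/+. Psmb11 encodes β5t, a catalytic proteasome subunit of cTECs. The allele is carried by the whole animal and is not restricted to cTECs. The labels do not state whether libraries of a genotype came from separate or pooled mice, so the p-values measure only the spread between these samples.

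Irf3 and Irf7 are activated by kinases downstream of nucleic acid sensors and switch on interferon genes. Secreted interferons act through receptors and Jak kinases, and type I and III interferons bring Stat2 and Irf9 together in a complex that binds interferon-stimulated response elements (ISREs). Gamma-interferon signals through gamma-activated sites (GAS) and induces Irf1, while Irf2 binds the same elements as Irf1 and can oppose it. Irf8 is known mostly from dendritic cells, monocytes and B cells, and Stat3 carries signals of the interleukin 6 family.

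The stretches below are the parts of the members' promoters with such matches, shown because they hold letters of the kind that IRFs and Stats are known to bind. The windows are RefSeq promoters of build GRCm38.p6, from 250 bases before to 50 bases after each gene's start, and all 8 members matched. The ISRE was searched as GAAANNGAAA, which reads TTTCNNTTTC on the other strand, and the GAS as TTCNNNGAA, which reads the same on both strands. Capitals mark the matches, and all 4 stretches are on the plus strand and written 5′ to 3′, from chr11:53769899-53769957 (Irf1), chr8:46739495-46739554 (Irf2), chr8:120736162-120736238 (Irf8) and chr10:128270251-128270310 (Stat2).
Irf1: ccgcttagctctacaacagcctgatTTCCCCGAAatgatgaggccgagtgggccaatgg
Irf2: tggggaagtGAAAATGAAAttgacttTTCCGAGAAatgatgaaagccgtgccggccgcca
Irf8: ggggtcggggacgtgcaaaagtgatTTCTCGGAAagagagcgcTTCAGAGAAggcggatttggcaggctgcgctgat
Stat2: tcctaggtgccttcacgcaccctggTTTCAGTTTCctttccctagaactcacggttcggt

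An ISRE was found in the windows of 2 of 8 members, Irf2 and Stat2, against 3.99% of 27025 genes with a window. A GAS was found in 3 of 8, Irf1, Irf2 and Irf8, against 9.55% of genes. Distances are counted from the RefSeq start, which for Irf2 and Stat2 is not the GENCODE start given with their values. The Irf1 element begins 90 bases before the start of the gene. Irf8 has a pair of GAS matches, 171 and 153 bases before its start. In Irf2 an ISRE begins 241 and a GAS 224 bases before the start, and they do not overlap. The Stat2 ISRE, 222 bases before the start, lies on the strand opposite to the gene. The windows of Irf3, Irf7, Irf9 and Stat3 held neither string of letters. The match is to letters in the reference and no binding was measured.

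The libraries held 34265035 to 39224292 gene counts each. Psmb11 had 67, 36 and 41 counts in KO and 8293, 9297 and 10027 in WT. Of the other 18 markers listed for cTECs all were detected, with the thymic protease Prss16 at 1738 ± 58.1 CPM (reads of a gene relative to the total of its library) in WT and 753 ± 153 in KO (SD, n = 3 each). The summed level of the cTEC list was 14072 to 14566 CPM in WT and 9417 to 10461 in KO. These sums include Psmb11 itself, at 252 ± 9.88 CPM in WT and 1.33 ± 0.429 in KO. Over all genes 3989 of 16938 (23.6%) differed between genotypes at a Benjamini-Hochberg adjusted p below 0.05 with the edgeR quasi-likelihood test, the rule by which a gene is called here. Of all genes 12.5% were called higher in KO and 11.1% lower, the median log2 fold change was -0.0008, and the median size of called changes was 1.22-fold.

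All 8 members were expressed in both genotypes. On the TPM scale, which is scaled for transcript length so that different genes can be compared, Irf1 was the most abundant, with a mean of 441.5 over the 6 libraries and a range of 371 to 487. Irf7 followed with 226 TPM (195 to 255.5), then Irf9 with 179 (172 to 196), Stat3 with 149.5 (138 to 156.5), Irf3 with 141 (132 to 155) and Stat2 with 132 (113.5 to 150.0). Irf8 with 58.8 TPM (49.7 to 66.6) and Irf2 with 49.4 (44.7 to 55.8) were lowest. Irf1 stood at the 98.3rd percentile of the genes tested and Irf2 at the 77.8th. The ranges of Irf7 and Irf9, of Stat3 and Irf3, of Irf3 and Stat2, and of Irf8 and Irf2 overlapped over the 6 libraries. Within libraries, Irf7 was above Irf9 in 6 of 6 and Stat3 above Irf3 in 6 of 6, while Irf3 was above Stat2 in 5 and Irf8 above Irf2 in 4. Irf1 lay apart from Irf7, Irf9 from Stat3, and Stat2 from Irf8. CPM divided by effective length gave the same place to 8 of 8 members.

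**Figure D1:**
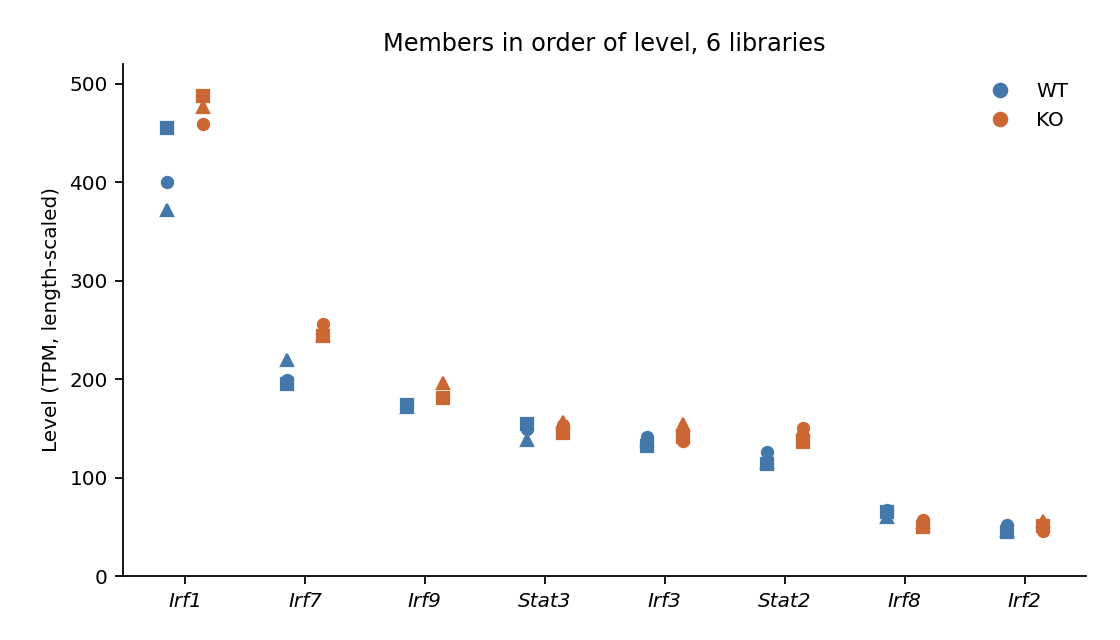
Level of each member in TPM (y axis, from 0) in the 6 libraries, ordered by mean; blue points are WT and orange points KO, with circles, squares and triangles for replicates A, B and C. Irf1 lies at 371 to 487 TPM, above every other member, and Irf8 and Irf2 lie lowest.

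Between genotypes 2 members, Irf7 and Stat2, were called higher in KO, 1, Irf8, was called lower, and 5 were not called. That is 37.5% of the members, against 23.6% of all genes. The CPM values of KO and WT did not overlap for 4 of 8 members (Irf7, Irf8, Irf9 and Stat2), against 39.3% of all genes. All called changes were small, with the most different member, Irf8, at 1.23-fold. Without KO replicate C, WT replicate A or WT replicate B, 0 members were called lower, and without WT replicate B Irf1 joined the members called higher.

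**Figure D2:**
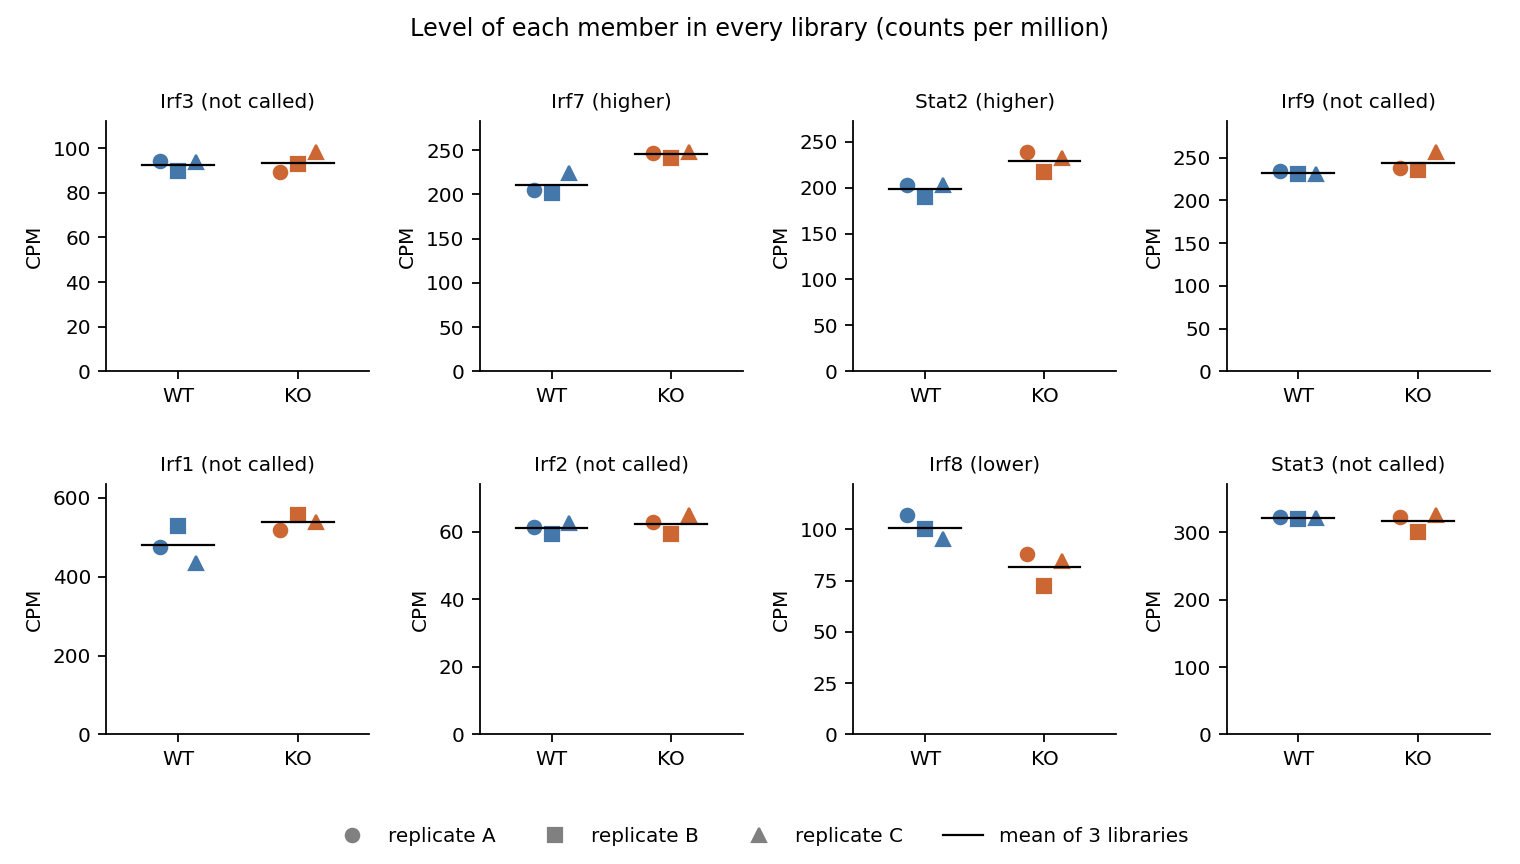
CPM of each member in every library (y axes from 0, each on its own scale), with blue for WT, orange for KO, markers for replicates A to C and a black line for the mean of 3 libraries. Irf7 and Stat2 lie higher in all KO libraries and Irf8 lower, while the points of Irf2, Irf3 and Stat3 overlap.

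Irf3 and Irf7 act on interferon genes themselves, Irf3 as a factor present at rest and Irf7 as one that interferon induces. Irf7 (ENSMUSG00000025498.15, chromosome 7, 141262706 to 141266481, minus strand, GRCm38) had 247, 241 and 248 CPM in KO libraries A, B and C and 204.5, 202 and 225 CPM in WT libraries A, B and C. Every KO library was above every WT library, and WT C was the nearest to KO. The means were 245 ± 3.865 and 210.3 ± 12.6 CPM (SD, n = 3 each), a log2 fold change of 0.22 (SE 0.04, 95% interval 0.14 to 0.31), or 1.17-fold (edgeR adjusted p = 9.50e-04). It was called in all 17 alternatives run.

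Irf3 (ENSMUSG00000003184.15, chromosome 7, 44997648 to 45002848, plus strand) had 89.5, 92.8 and 98.1 CPM in KO, against 94.3, 89.7 and 93.7 CPM in WT. The genotypes overlapped, and the lowest library of all was a KO library. The log2 fold change was 0.01 with an interval of -0.07 to 0.10 (adjusted p = 0.860). Within each library, the reads of Irf7 per read of Irf3 were 2.76, 2.60 and 2.52 in KO and 2.168, 2.25 and 2.40 in WT, with means of 2.63 ± 0.124 and 2.27 ± 0.117. This ratio does not depend on the scaling of libraries, and the genotypes did not overlap in it. An exact two-sided permutation test gave p = 0.1, the smallest that 3 against 3 libraries allow, and 0.125 after adjustment over 5 pairs of genes, which were chosen with the members' values known.

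Stat2 and Irf9 act together in the complex that binds ISREs. Stat2 (ENSMUSG00000040033.16, chromosome 10, 128270559 to 128292849, plus strand), whose promoter stretch with an ISRE is printed above, had 238.5, 217 and 233 CPM in KO, against 203, 190.2 and 202.5 CPM in WT. The genotypes did not overlap, and replicate B was the lowest library in both. The means were 229 ± 11.35 and 199 ± 7.29 CPM, and the log2 fold change was 0.21 (SE 0.04, interval 0.12 to 0.29), or 1.15-fold (adjusted p = 0.00175). Like Irf7, it was called in all 17 alternatives.

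Irf9, the DNA-binding subunit of that complex (ENSMUSG00000002325.14, chromosome 14, 55603571 to 55610030, plus strand), had 238, 236 and 256 CPM in KO, against 234.5, 231 and 231 CPM in WT. The KO values lay above the WT values, but 2 of them by little, and KO C carried most of the difference. The log2 fold change was 0.07 (interval -0.01 to 0.15, adjusted p = 0.217). Without KO replicate C it was 0.03, and it was not called under any alternative run.

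The ratio of reads within a library sets these partners beside each other. Stat2 had 0.943 ± 0.0522 reads per read of Irf9 in KO and 0.855 ± 0.0273 in WT, and the genotypes did not overlap. The exact permutation p was 0.1, the smallest possible (0.125 adjusted over the 5 pairs).

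Irf1 and Irf2 are the pair that bind the same elements with partly opposed effects. Irf1 (ENSMUSG00000018899.16, chromosome 11, 53770014 to 53778374, plus strand) had 519.8, 556 and 538.5 CPM in KO, against 475, 528 and 436 CPM in WT. WT B lay above KO A, so the genotypes overlapped, and the WT libraries spread more widely than the KO libraries. The means were 538 ± 18.0 and 479.6 ± 46.0 CPM and the log2 fold change was 0.17 (SE 0.06, interval 0.03 to 0.31), which was not called (adjusted p = 0.0877). Without WT replicate B the log2 fold change was 0.24 and Irf1 was called (adjusted p = 0.00370). It was also called with DESeq2 (0.0143) and with no filter on low counts (4.79e-04), and over all 17 alternatives the adjusted p ran from 4.79e-04 to 0.214. On the TPM scale the values were 459, 487 and 476 in KO and 400.4, 455 and 371 in WT and did not overlap, although limma on log2(TPM + 1) did not call the gene (adjusted p = 0.102).

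Irf2 (ENSMUSG00000031627.9, chromosome 8, 46739732 to 46847458, plus strand) had 62.9, 59.4 and 64.8 CPM in KO, against 61.3, 59.4 and 62.7 CPM in WT. Its values were interleaved between genotypes. The log2 fold change was 0.03 with an interval of -0.06 to 0.12 (adjusted p = 0.693). Irf1 had 8.64 ± 0.623 reads per read of Irf2 in KO and 7.87 ± 0.967 in WT, which overlapped (exact permutation p = 0.4).

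Irf8 was the member that fell. Irf8 (ENSMUSG00000041515.9, chromosome 8, 120736358 to 120756694, plus strand) had 88.1, 72.6 and 84.6 CPM in KO, against 107, 99.99 and 95.2 CPM in WT. All KO libraries were below all WT libraries, with KO B the lowest. The means were 81.7 ± 8.14 and 101 ± 5.84 CPM and the log2 fold change was -0.30 (SE 0.07, interval -0.47 to -0.13), or 1.23-fold lower (adjusted p = 0.0186). The call was lost without KO replicate C (adjusted p = 0.0585), WT replicate A (0.0553) or WT replicate B (0.0563), where the log2 fold change was -0.33, -0.26 and -0.31, and it held in 13 of 17 alternatives. The reads of Irf7 per read of Irf8 were 3.02 ± 0.267 in KO and 2.10 ± 0.234 in WT, without overlap (exact permutation p = 0.1, the smallest possible).

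Because Irf8 is best known from blood cells, markers of such cells were set beside it. Of 16 dendritic cell and macrophage markers tested 9 (56.25%) were called higher in KO and 0 lower with edgeR, against 12.5% and 11.1% of all genes. This was opposite in direction to Irf8. Also 0 were lower at an unadjusted p below 0.05 and with DESeq2 or with limma, which called 5 higher on either TPM scale. With a mean of at least 5 CPM, which leaves out genes of low level, 4 were called higher. Adgre1 and Flt3, among the 9, averaged 0.108 and 0.249 CPM in WT. The summed level of the 20 listed was 175 to 185.5 CPM in KO, against 122 to 132 in WT. Sirpa had the largest part of these sums, with 77.9 CPM in KO and 68.7 in WT. Of the 20, none was at 0 in all libraries, and 7 (Adgre1, Cx3cr1, Xcr1, Clec9a, Batf3, Fcer1g and Aif1) were below 1 CPM. The lysozyme gene Lyz2 rose from 10.2 ± 0.434 to 24.8 ± 4.85 CPM, and Cd14, Mpeg1 and Itgax were 2.02-fold, 1.41-fold and 3.40-fold higher. The change in Itgax was at a low level, from 0.292 CPM in WT to 1.003 in KO. The pan-leukocyte gene Ptprc was at 9.19 ± 4.71 CPM in KO against 4.81 ± 0.835 in WT, which was not called.

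Of 7 plasmacytoid dendritic cell markers tested 2 (28.6%), Ly6d and Runx2, were called higher, against 12.5% of all genes. Siglech, Cox6a2 and Cd300c were below 1 CPM. The sums of the 10 listed were 422 to 439 CPM in KO, against 403 to 418 in WT. Most of these sums came from Tcf4 (234 CPM in KO, 238 in WT) and Bst2 (132 and 127), neither of them called. Bst2 is also on the list of targets of Stat2 and Irf9 described below. Ly6d had 43.4 CPM in KO, against 24.95 in WT. Leaving out KO replicate B, or WT replicate A, lost the call of Runx2 and left 1 marker. Of 5 B cell markers tested 0 were called higher or lower with edgeR, against 23.6% of all genes. Also 0 were called at an unadjusted p below 0.05 and with DESeq2 or limma. The sums of the B cell list were 32.2 to 78.7 CPM in KO, against 33.5 to 41.99 in WT, the highest in KO A. Without KO replicate B, KO replicate C or WT replicate C, 1 B cell marker was called higher. The cTEC list itself moved in the same direction as Irf8, with a median of -0.44. Of its 19 markers 15 were lower (78.95%, against 11.1% of all genes) and 1, Pax9, higher. Psmb11, the mutated gene, is among the 15, and its fall was fixed by the design. Leaving out KO replicate B, KO replicate C, WT replicate A or WT replicate C left no cTEC marker called higher. Fewer cells of a type and less RNA per cell cannot be told apart in these bulk samples, and the part of cell composition in the Irf8 difference was not tested.

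Stat3 (ENSMUSG00000004040.16, chromosome 11, 100885098 to 100939540, minus strand), the Stat of interleukin 6 family signals, had 322.5, 300.8 and 325 CPM in KO, against 323, 319.7 and 321 CPM in WT. KO B was lower than the other 5 libraries, which lay within a few CPM of each other. The log2 fold change was -0.02 with an interval of -0.10 to 0.05 (adjusted p = 0.703). Stat2 had 0.725 ± 0.0131 reads per read of Stat3 in KO and 0.618 ± 0.0200 in WT, without overlap (exact permutation p = 0.1, the smallest possible, 0.125 adjusted).

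Of 9 other IRF, Stat and IRF-binding genes described, 1 (11.1%) was called higher and 3 (33.3%) lower, against 12.5% and 11.1% of all genes. Their median log2 fold change was 0.01. Irf4, a factor of lymphoid and myeloid cells, was the one called higher, at a low level of 2.84 ± 0.662 against 1.88 ± 0.348 CPM (adjusted p = 0.0491). Its call was lost without KO replicate A (adjusted p = 0.217), KO replicate B (0.0699) or any 1 of WT replicates A, B and C (0.0899, 0.0712 and 0.214). It was lost also with DESeq2 (0.0869), with RSEM expected counts (0.0563), without the robust estimate of the spread (0.06125) and with limma (0.278 and 0.291). The corepressors Irf2bp2 and Irf2bp1, which bind Irf2, were 1.16-fold and 1.12-fold lower, and Stat5b was 1.14-fold lower. The call of Irf2bp1 was lost without either KO replicate B or WT replicate C, and that of Stat5b without WT replicate B. Both were also lost with limma on either TPM scale (adjusted p of 0.102 to 0.152), which left 1 gene called lower. Without KO replicate A, 4 genes were called lower.

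**Figure D3:**
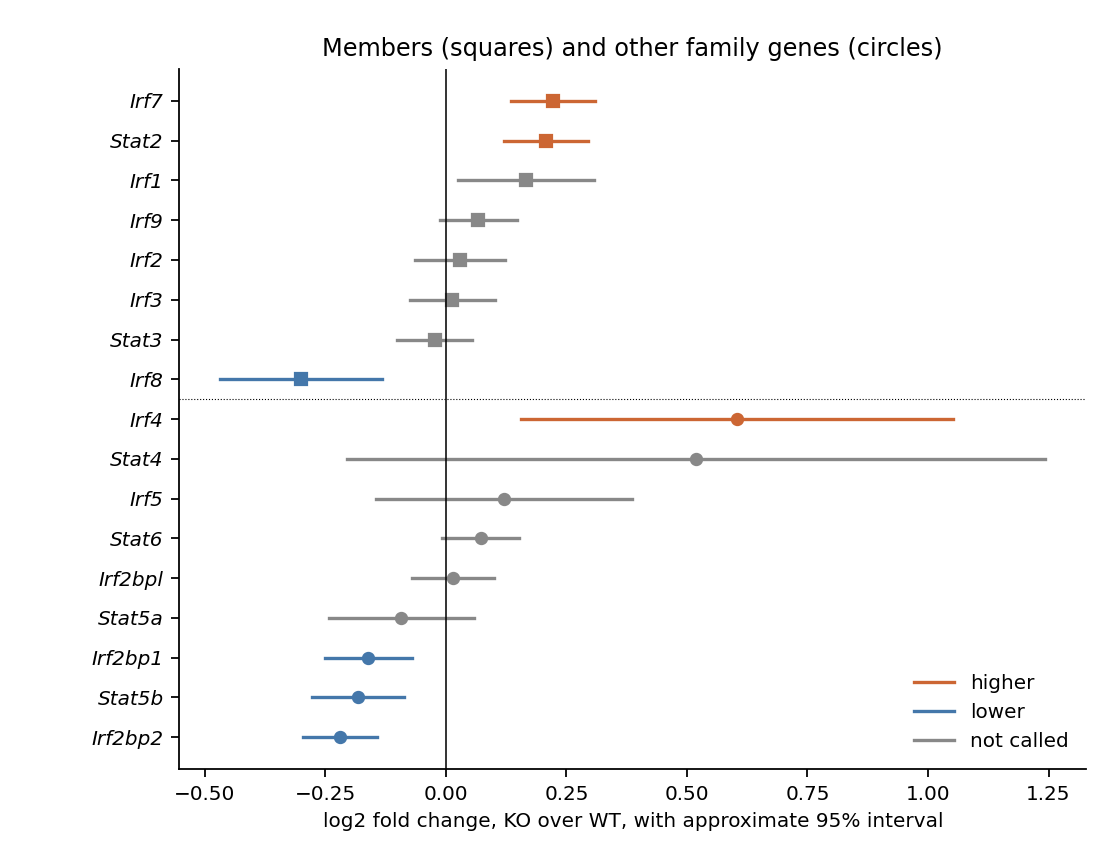
Log2 fold change, KO over WT (x axis), with its approximate 95% interval for the 8 members (squares) and 9 other genes of the families (circles); orange is called higher, blue called lower and grey not called. The intervals of Irf7 (0.14 to 0.31), Stat2 (0.12 to 0.29) and Irf8 (-0.47 to -0.13) exclude 0, and so does that of Irf1, which was not called after adjustment.

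Upstream of Irf3 and Irf7, the list of nucleic acid sensors, adaptors and kinases had 8 of 18 genes tested called higher and 1, Traf3, called lower, with a median log2 fold change of 0.10. Myd88, the adaptor of most Toll-like receptors, rose from 69.4 ± 4.32 to 85.7 ± 2.67 CPM. Ikbke, one of the kinases that phosphorylate Irf3 and Irf7, was 1.33-fold higher, the DNA-sensing adaptor Tmem173 (STING) 1.28-fold and the nucleic acid sensor Zbp1 1.18-fold. The related kinase Tbk1 had 57.1 ± 0.253 CPM in KO, against 58.8 ± 1.95 in WT and was not called. Traf3, an adaptor in the same route, was 1.13-fold lower. Without WT replicate B 5 of the 18 were called higher.

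Most ligands of these receptors were near or at the limit of detection, with Ctf1 and Clcf1 the most abundant. Of 18 listed, 6 had enough reads to be tested, and 7 (Ifna1, Ifna2, Ifna4, Ifnb1, Ifne, Ifnk and Ifng) had 0 counts in every library. A count of 0 allows a level of up to 0.0768 to 0.0878 CPM, taking 3 counts as the limit in each library and covering counting error only. The cytokine Lif was 1.51-fold higher (4.87 ± 0.423 against 3.21 ± 0.493 CPM), a call lost without WT replicate A, and Ctf1 was 1.22-fold lower (33.1 ± 2.66 against 40.4 ± 1.09 CPM). Both act through receptors that signal to Stat3.

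Of 18 receptors and Jak kinases 5 were called higher and 1 lower, with a median log2 fold change of 0.07. Ifngr1, the ligand-binding chain of the gamma-interferon receptor, rose from 72.5 ± 2.56 to 85.5 ± 0.839 CPM. The oncostatin M receptor Osmr and the interleukin 6 receptor Il6ra were 1.14-fold and 1.25-fold higher, as were Ifnlr1 (1.13-fold) and Il22ra1 (1.54-fold, from 1.80 CPM). Il10rb, the chain shared by receptors of interleukin 10 and type III interferons, was 1.15-fold lower. The type I interferon receptor chains Ifnar1 and Ifnar2 and the kinases Jak1, Jak2, Jak3 and Tyk2 were not called. Without KO replicate C or WT replicate A, 3 of the 18 were called higher.

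Inhibitors of Jak-Stat signalling had 6 of 13 called higher and 0 lower (edgeR; 1 lower at an unadjusted p below 0.05, and 0 lower with DESeq2), with a median log2 fold change of 0.05. Socs2 rose from 10.97 ± 1.46 to 19.6 ± 2.34 CPM, and the phosphatases Ptpn1 and Ptpn2 were 1.12-fold and 1.18-fold higher. Cish was 1.14-fold, Socs1 1.23-fold and Socs3, the inhibitor of gp130 signals, 1.19-fold higher. Usp18, which limits type I interferon signals, had 129 ± 8.39 CPM in KO, against 128 ± 5.25 in WT and was not called. With limma on log2(TPM + 1) or log2(TPM + 0.1), 4 inhibitors were called higher and 1, Pias1, lower.

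Of 30 targets of Stat2 and Irf9 20 (66.7%) were called higher and 2 lower, with a median log2 fold change of 0.18. Oas2, an antiviral synthetase gene, had 46.3, 49.0 and 50.3 CPM in KO, against 18.3, 19.2 and 23.7 CPM in WT, 2.38-fold higher without overlap. Its relative Oas3 and the antiviral gene Mx2 were 1.59-fold and 1.48-fold higher. Isg20, a nuclease gene, was 1.45-fold lower and Ifi27l2a 1.10-fold lower, and 1 target was called lower without KO replicate B, KO replicate C, WT replicate A or WT replicate C. With promoter windows for 23 of the targets, 10 (43.5%) held an ISRE by the letters given above, as did 10 of 19 (52.6%) targets of Irf1 and gamma-interferon and 2 of 19 (10.5%) targets of Stat3. A GAS was found in 6 of 23 (26.1%), 5 of 19 (26.3%) and 3 of 19 (15.8%) of the same lists, in that order. Over all genes with a window the shares were 3.99% for the ISRE and 9.55% for the GAS.

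Of 25 tested targets of Irf1 and gamma-interferon 12 (48.0%) were called higher and 5 lower, with a median of 0.09. Nlrc5, an activator of class I antigen presentation genes, rose from 71.8 ± 0.617 to 94.6 ± 4.22 CPM, and the chemokine gene Cxcl9 (2.42-fold, from 4.23 ± 0.506 CPM) and the GTPase gene Gbp5 (1.26-fold) were higher. The genes called lower were the immunoproteasome subunits Psmb10 and Psmb9, the proteasome activator subunit Psme2, the class II activator Ciita and the class II chaperone Cd74. Psmb10 had 135, 130.4 and 127 CPM in KO, against 175, 174 and 184 CPM in WT, 1.36-fold lower. It is also on the list of cTEC markers.

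Of 23 tested targets of Stat3, 12 (52.2%) were called higher and 1, Tnfrsf1a, lower, with a median of 0.20. Timp1, an inhibitor of metalloproteinases, rose from 7.05 ± 0.308 to 13.0 ± 0.925 CPM, and the survival gene Mcl1, the transcription factor Cebpd and the kinase Pim1 were 1.25-fold, 1.28-fold and 1.26-fold higher. The members Socs3 and Osmr of this list also stand among the inhibitors and receptors. No target was called lower without KO replicate B or any 1 of the WT replicates. The lists of targets are textbook sets, but they were written with earlier results of these data known. Many of their genes respond to other signals as well. Fibroblast and pericyte markers were higher in the same KO libraries (9 of 13 or 69.2% called, sums of 1439 to 1536 CPM against 1009 to 1138). So were medullary epithelial markers (9 of 15 or 60% called, 6573 to 6936 against 5198 to 5783 CPM). Of all genes 12.5% were called higher. Of the medullary list, Aire, Fezf2, Ccl21a and Trp63 were not called (edgeR adjusted p = 0.0669, 0.159, 0.199 and 0.0761), Trp63 with a log2 fold change of -0.10. Krt5 had the largest part of the medullary sums (3224 CPM in KO, 2481 in WT), and Cd86, called higher, averaged 0.102 CPM in WT. The part of fibroblasts, pericytes and medullary epithelial cells in the counts of targets called was not tested.

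**Figure D4:**
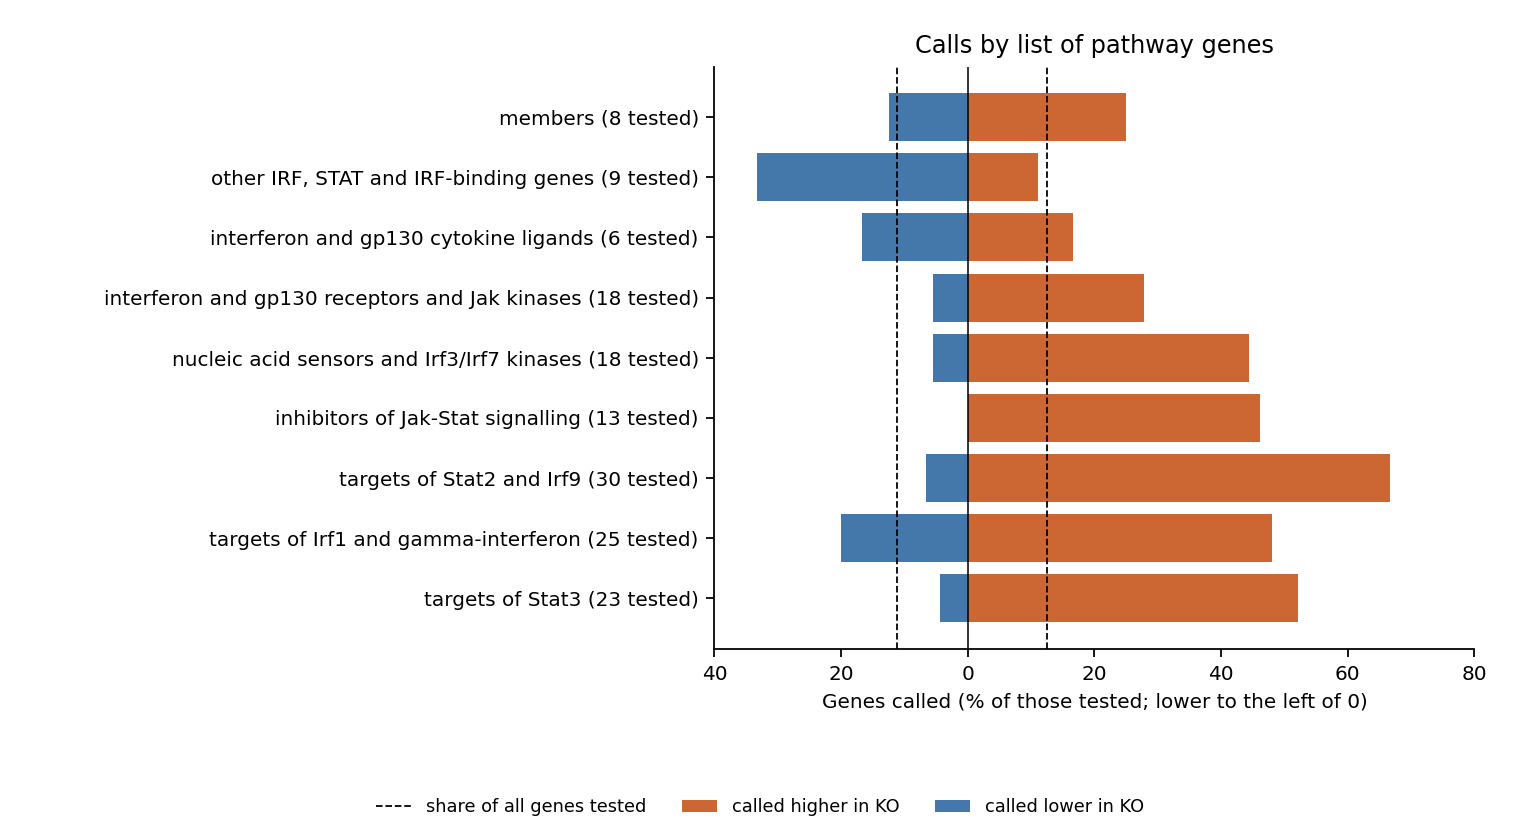
Share of tested genes called higher (orange, right of 0) and lower (blue, left of 0) in KO for the members and 8 lists of related genes, in percent; dashed lines mark the shares over all genes tested, 12.5% and 11.1%. The targets of Stat2 and Irf9 reach 66.7% called higher. The lists were written with earlier results of these data known.

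The patterns most like those of the called members over the 6 libraries were found by Pearson correlation of log2 CPM among 10063 other genes that averaged 10 CPM or more, as a description. For Irf7 these were Cercam (r = 0.997) and Ccnt1 (r = 0.995). For Stat2 they were the class I gene H2-Q6 (r = 0.999) and Haus6 (r = 0.998), and for Irf8 Itfg2 (r = 0.997) and Abcf3 (r = 0.987). With 6 libraries in 2 groups such values are common, and 354, 322 and 389 genes had an r above 0.9 with Irf7, Stat2 and Irf8. H2-Q6 belongs to a family of near-identical copies between which reads may be split.

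By position, Irf9 is the member nearest to the mutated gene, 0.974 Mb from Psmb11 on chromosome 14. Within 1 Mb of Psmb11 15 of 46 genes tested were called (32.6%), and within 10 Mb 44 of 194 (22.7%), against 23.6% of all genes. Beside Irf9, Rec8, a meiotic cohesin, was 1.77-fold higher at a low level (4.27 against 2.41 CPM), Psme2 was 1.10-fold lower and Rnf31 was not called (adjusted p = 0.0577). Rnf31 overlaps the start of Irf9 on the same strand, so strand does not separate reads in that overlap. Gm20388 is annotated across all of Irf8 on the same strand and had 0 counts in every library. Gm17334 overlaps Irf1 on the opposite strand and was not called. Gm45479, Gm31172 and Gm45481 overlap Irf2 on the opposite strand and had too few reads to be tested. Irf7 overlaps Phrf1, Irf3 overlaps Bcl2l12 and Stat3 overlaps Stat5a, each on the opposite strand, and these 3 neighbours were not called. Further away but within the surroundings examined, Cdhr5 beside Irf7 was 1.61-fold higher, and Rras beside Irf3 and Cavin1 beside Stat3 were 1.14-fold and 1.12-fold lower. Gm12216 beside Irf1 was 1.18-fold lower. The read counts used keep opposite strands apart, and reads on the other strand of a member numbered from 18 to 406 per library. Beside Stat2, Pan2 and Il23a were 1.11-fold and 2.06-fold higher, the latter from 1.45 CPM.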

How the data were processed

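RNA was sequenced from 6 libraries, 3 per genotype, with a stranded kit per the labels' protocols. Per the submitters' processing notes, bcl2fastq 2.17, STAR 2.5.1b and RSEM 1.2.28 were used. The notes name GRCh38, a human build, while the identifiers are mouse, so the build is uncertain. Symbols and positions were looked up in GENCODE M21 (GRCm38), where 50376 of 50600 identifiers (99.56%) matched. The authors deposited raw read counts per gene in columns by strand; those on the opposite strand were taken, which held 95.5% to 95.7% of stranded gene counts. Reads assigned to no gene (18.4% to 19.8%) were left out. The authors also deposited RSEM expected counts, rounded here for an alternative, TPM values for levels between genes, and effective lengths.

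Genes passing filterByExpr were tested with edgeR 4.0.16 in R 4.3.3 (quasi-likelihood, TMM, no block, Benjamini-Hochberg over 16938 genes, called below 0.05). A robust estimate of the spread was used, a setting chosen after the data were seen because it gave the counts of an earlier analysis. SEs and 95% intervals come from the F statistic and are approximate. CPM are counts divided by TMM-scaled library totals. Gene counts set the depth, and members had 2110 to 20484 counts per library. The method was tested on simulated data. In those data fewer genes changed than were called here, and every change was larger than that of any called member. For ratios of reads between members an exact permutation test was used, two-sided.

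Some genes of the families are not reported here. Members and lists were chosen with earlier results of these data known. Named genes are the members, up to 4 called genes per list by increasing p (or the 2 of highest CPM where none was called), the 2 genes most like each called member, and neighbours. Other genes named from lists, including every gene of a count of 5 or fewer and genes not called, were chosen after their values were seen. Same-letter replicates did not deviate together, with correlations of -0.01, 0.08 and -0.04, so letters were not taken as pairs. The 17 alternatives of each member used DESeq2 1.42.0, RLE or upper quartile normalization, every gene with a count or those averaging 5 CPM or more, expected counts, unstranded counts, limma 3.58.1 on log2(TPM + 1) and log2(TPM + 0.1) of genes with a mean of at least 0.5 TPM, a replicate block and leaving out each library; no robust estimate was added later. Figures were drawn with matplotlib 3.10.9.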

Additional observations from a re-analysis of the deposited data

How the results depend on the processing

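Irf7 and Stat2 were called higher in KO in all 17 alternatives, with log2 fold changes of 0.19 to 0.28 and 0.18 to 0.30. Irf8 was lower in all 17 (-0.36 to -0.22) and called in 13. Members called lower numbered 0 with limma on log2(TPM + 1), where Irf8 had an adjusted p of 0.0511, and 0 to 1 when 1 library was left out. Members called higher numbered 2 to 3 then. All genes called numbered 3989, against 1791 with limma on log2(TPM + 1), 1820 with log2(TPM + 0.1), and the cause was not tested. With the replicate block 3 members were called higher, with Irf1 added (adjusted p = 0.00692), and 1 lower, but the labels state no link between libraries of the same letter. The sign of Irf2, Irf3 and Stat3, never called, turned in 1, 3 and 3 alternatives. With a mean of at least 5 CPM, which leaves out genes of low level, 0 ligands were called higher, and with DESeq2 3 receptors and 5 sensors. With 3 libraries per genotype and a common coefficient of variation of 0.0538, the intervals of uncalled members still allow changes of up to 1.09-fold for Irf2 and 1.24-fold for Irf1.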

Other observations

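Irf1 was the member that varied most among WT libraries, with 528 CPM in B, 475 in A and 436 in C. The same order, B above A above C, was seen in WT for 14.8% of 10063 other genes averaging 10 CPM or more. It was seen for 8 of 19 Stat3 targets at that level (Socs3, Junb, Pim1, Mcl1, Ccnd1, Lcn2, Vegfa and Tnfrsf1a) and for 3 of 24 targets of Irf1 and gamma-interferon (Irgm1, Cxcl10 and Cd274), and for 5 of 13 inhibitors of Jak-Stat signalling and 1 of 30 targets of Stat2 and Irf9. Socs3 had 1295, 1249 and 1123 CPM in WT B, A and C, and Junb, an immediate early gene, had 1854, 1791 and 1665 CPM. Cxcl10, a chemokine gene, had 389, 341 and 307 CPM in the same libraries and Cd274, the gene of the ligand PD-L1, 311, 282 and 257 CPM. In KO the order of Irf1 was B above C above A. That of Cxcl10 (453, 430 and 412 CPM) and Cd274 (391, 367 and 357 CPM) was A above B above C. Both orders of Irf1 were shared by 2.74% of the other genes, 4 of 19 Stat3 targets and 1 of 24 targets of Irf1 and gamma-interferon. The same held for 1 of 13 inhibitors and 0 of 30 targets of Stat2 and Irf9. These orders were read off after the values were seen and were not tested.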
